A study of Mus musculus with 2 samples.

Results

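The data describe 6 secreted regulators of Wnt signalling, Wif1, Dkk3, Sfrp1, Sfrp2, Frzb and Rspo1, in heart fibroblasts of old mice. They are 6 of the 15247 genes in the deposited table, and they were chosen from measured values: their level, the share of cells with a transcript and their joint detection in fibroblasts and macrophages of these same libraries. Those values are therefore given as descriptions, with no test. The mice were p16-FDR animals on a C57BL/6 background, 20 to 22 months old. This strain carries a FLP recombinase optimised for mammals and a diphtheria toxin receptor fused to the red fluorescent protein mCherry. All cells analysed were heart cells sorted for mCherry, in 2 samples of 1 group, so no unsorted, mCherry-negative or young cells enter any comparison. Single cells were captured in droplets and the 3' ends of their RNA sequenced, and a unique molecular identifier (UMI) marks each captured transcript molecule.

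Wnt proteins are secreted signals that bind Frizzled receptors and LRP co-receptors and stabilise beta-catenin, which then acts with TCF/LEF factors on target genes. WIF1 and the secreted Frizzled-related proteins SFRP1, SFRP2 and FRZB bind Wnt proteins outside the cell and can keep them from their receptors, while R-spondins such as RSPO1 keep Frizzled receptors at the cell surface and so strengthen the signal. DKK3 is a divergent member of the Dickkopf family, whose relation to Wnt signalling varies with the cell type. Fibroblasts make the collagen matrix of the heart and are known to express several of these secreted proteins.

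In the GENCODE annotation of GRCm38 (mm10), Wif1 lies at chr10:121033960-121100650 on the plus strand, Dkk3 at chr7:112116017-112159057 on the minus strand and Sfrp1 at chr8:23411502-23449632 on the plus strand. Sfrp2 lies at chr3:83766321-83774316 on the plus strand, Frzb at chr2:80411970-80447625 on the minus strand and Rspo1 at chr4:124986430-125009099 on the plus strand. An antisense gene overlaps Sfrp2 (Gm26771) and another overlaps Rspo1 (Gm12930). RefSeq promoter sequences (GRCm38.p6) were matched for 4 of the 6 genes, Wif1, Sfrp2, Frzb and Rspo1. The 250 bases before the RefSeq start held 21 CG dinucleotides for Wif1, 16 for Sfrp2, 16 for Frzb and 22 for Rspo1. The median over 32851 promoters was 6, and 25.4% of them held at least 16. The stretches of Wif1, Sfrp2 and Rspo1 are shown because their genes differed most between libraries among those matched, with CG dinucleotides in capitals and only the bases that precede the GENCODE gene. They are chr10:121033754-121033959, chr3:83766071-83766320 and chr4:124986180-124986429, all on the plus strand.
Wif1: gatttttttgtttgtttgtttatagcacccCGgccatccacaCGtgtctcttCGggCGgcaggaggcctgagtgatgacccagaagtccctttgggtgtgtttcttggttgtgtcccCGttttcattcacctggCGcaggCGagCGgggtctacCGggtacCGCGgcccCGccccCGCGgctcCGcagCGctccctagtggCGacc
Sfrp2: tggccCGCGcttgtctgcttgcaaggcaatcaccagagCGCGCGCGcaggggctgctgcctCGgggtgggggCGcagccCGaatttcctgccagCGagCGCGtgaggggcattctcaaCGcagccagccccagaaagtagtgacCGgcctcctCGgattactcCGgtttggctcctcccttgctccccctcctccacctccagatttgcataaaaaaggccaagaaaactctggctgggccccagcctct
Rspo1: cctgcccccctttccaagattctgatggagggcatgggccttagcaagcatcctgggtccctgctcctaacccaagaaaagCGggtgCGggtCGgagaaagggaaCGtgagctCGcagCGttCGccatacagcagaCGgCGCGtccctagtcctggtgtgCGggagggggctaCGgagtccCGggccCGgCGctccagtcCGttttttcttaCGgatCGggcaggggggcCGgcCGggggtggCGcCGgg
The core of the TCF/LEF motif, CTTTGA on either strand (TCAAAG on the other), was found in 1 of the 4 promoters, that of Frzb, 95 bases before the RefSeq start and inside the GENCODE gene. It occurred in 13.83% of all promoters of this length, and a match in the letters is not evidence of a bound site.

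Each cell's name begins with 1 of 2 library tags, written here as Heart1 and Heart2. Cells were classed by marker genes: a fibroblast had a UMI of at least 4 of Col1a1, Col1a2, Col3a1, Dcn, Lum and Pdgfra and of at most 2 of 8 macrophage genes (Lyz2, C1qa, C1qb, C1qc, Cd68, Csf1r, Fcer1g and Tyrobp), and a macrophage the reverse. Heart1 held 204 fibroblasts (76.7% of 266 cells) and 37 macrophages, and Heart2 held 938 fibroblasts (80.9% of 1160) and 208 macrophages. The libraries shared 0 cell barcodes. Fibroblasts of Heart1 had a median of 11856 UMIs and those of Heart2 8771, with 2683492 and 8374950 UMIs in all. No label ties a library tag to a sample record or names separate animals, so any p-value rests on 2 libraries whose spread may be technical. The standard errors behind each p-value come mostly from the spread of other genes, also for fibroblasts against macrophages. The 8 macrophage genes together reached 10.1 and 18.9 UMIs in each 1000000 (CPM) in the fibroblasts of Heart1 and Heart2, and the 4 T cell markers were at 0 in both. The libraries also differed in genes known to respond to tissue handling: in fibroblasts, Fos stood at 879.8 CPM in Heart1 and 146.3 in Heart2, and Hspa1a at 1255 and 169.9.

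Macrophages had almost no transcripts of the 6 genes. In Heart1 the 37 macrophages held 1 UMI of Dkk3 and none of the other genes, and 0 UMIs among them allow a level of up to 8.64 CPM. In Heart2 the 208 macrophages held 2 UMIs of Frzb, 1 each of Wif1, Dkk3, Sfrp1 and Rspo1, and none of Sfrp2. Any of the 6 genes was seen in 1 of 37 and 6 of 208 macrophages. Macrophages had a median of 8133 and 9568 UMIs in Heart1 and Heart2, against 11856 and 8771 in fibroblasts, and their shares serve as the background for cells that should lack these genes. Sfrp1 in Heart2 reached 292.4 CPM in fibroblasts against 0.487 in macrophages, 600.3-fold (exact interval 107.6 to 23720). Fibroblasts exceeded macrophages in Dkk3 by 188.5-fold in Heart1 (33.8 to 7448) and 156.9-fold in Heart2 (28.1 to 6205). Against 3 UMIs over all macrophages of the library, the level in fibroblasts was at least 44.1-fold higher for Wif1 in Heart1, and for Sfrp2 at least 10.5-fold in Heart1 and 25.7-fold in Heart2. Rspo1 in the fibroblasts of Heart1, at 7.45 CPM, lay under that limit, so a difference from macrophages was not detectable there. These contrasts chose the genes. For scale, fibroblasts exceeded macrophages 2-fold or more in both libraries for 14.8% of 8786 genes, and the reverse held for 10.9%.

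**Figure D1:**
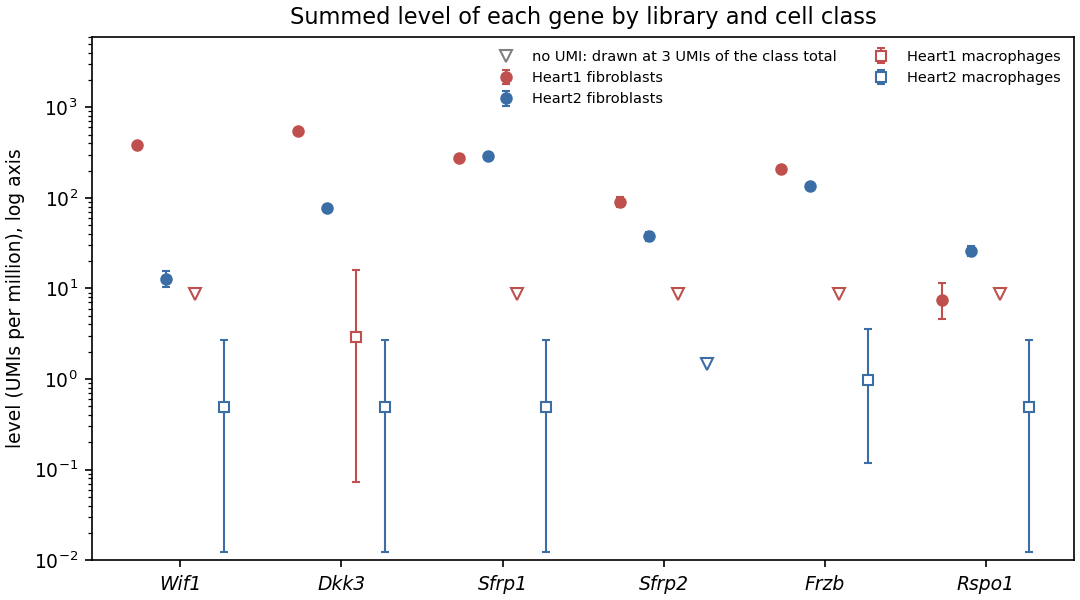
Level of each gene in CPM on a log axis, summed over fibroblasts (circles) or macrophages (squares) of each library, with exact 95% Poisson intervals. Open triangles stand for classes with no UMI and are drawn at 3 UMIs of the class total. Wif1 stands at 380.8 in the fibroblasts of Heart1 and 12.8 in those of Heart2, while Sfrp1 is nearly level.

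Between the libraries the 6 genes did not move together. Over 8605 genes averaging at least 10 CPM in fibroblasts, 3.9% were at least 2-fold apart, 2.39% higher in Heart1 and 1.51% higher in Heart2, and the median difference on the log2(CPM + 5) scale was -0.10. Of the 6 genes, 3 were 2-fold higher in Heart1 (Wif1, Dkk3 and Sfrp2), 1 was 2-fold higher in Heart2 (Rspo1) and 2 were neither (Sfrp1 and Frzb). With 1 library on each side there is no test, and animal, preparation and library cannot be told apart.

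Wif1, the Wnt-binding inhibitor, had the largest library difference of all 8605 genes on the log2(CPM + 5) scale (4.44). It was found in 38 of 204 fibroblasts of Heart1 (18.6%, exact interval 13.5 to 24.7%) with 1022 UMIs, and in 10 of 938 of Heart2 (1.07%, 0.512 to 1.95%) with 107 UMIs. The levels were 380.8 and 12.8 CPM, a 29.8-fold difference (24.4 to 36.7), or 48.3-fold without the 5% of cells with most UMIs. The transcripts were concentrated: the 10 cells with the most Wif1 held 69.9% of its UMIs in Heart1, a positive cell held a median of 11.5 UMIs there, and the highest cell held 160. In Heart2 a positive cell held a median of 3.0 UMIs and the highest 37. After thinning every cell to 3000 UMIs, 14.7% and 0.853% of fibroblasts were positive, and the gap between libraries was as wide as before thinning. In Heart2 the share in fibroblasts, 1.07%, was near the 0.481% of macrophages with a UMI (1 cell), but 4 of the 10 positive fibroblasts held 5 or more UMIs.

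Dkk3 followed the same direction with a broader distribution. It was found in 134 fibroblasts of Heart1 (65.7%, 58.7 to 72.2%) and 209 of Heart2 (22.3%, 19.7 to 25.1%). The levels were 542.9 and 76.4 CPM, a 7.11-fold difference (6.47 to 7.81), which ranked 19th among the genes higher in Heart1. Thinned shares were 44.1% and 11.3%. The gap remained among fibroblasts with no Wif1 UMI, where Dkk3 stood at 308.5 CPM in Heart1 and 62.4 in Heart2, 4.95-fold apart.

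The secreted Frizzled-related genes differed less. Sfrp1 was found in 158 fibroblasts of Heart1 (77.5%, 71.1 to 83.0%) and 607 of Heart2 (64.7%, 61.6 to 67.8%), with 49.0% and 42.9% after thinning. Its levels were 277.3 and 292.4 CPM, a ratio of 0.948 whose interval, 0.872 to 1.03, includes equality, and the direction turned without the 5% of cells with most UMIs (1.04) and as a mean over cells (1.11). Frzb, also known as Sfrp3, was found in 143 (70.1%) and 523 (55.8%) fibroblasts at 208.7 and 135.3 CPM, a 1.54-fold difference (1.39 to 1.71). Sfrp2 was restricted to fewer cells, 35 (17.2%, 12.3 to 23.0%) and 76 (8.10%, 6.44 to 10.0%), at 90.9 and 37.5 CPM, 2.43-fold apart (2.04 to 2.88). Its UMIs were concentrated as those of Wif1 were, with 71.3% and 61.8% of them in the 10 highest cells of each library.

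Rspo1, the one signal-strengthening gene of the 6, ran the other way. It was found in 12 fibroblasts of Heart1 (5.88%, 20 UMIs) and 138 of Heart2 (14.7%, 218 UMIs). The levels were 7.45 and 26.0 CPM, 3.49-fold higher in Heart2 (2.21 to 5.83), which ranked 45th among genes higher in Heart2. Thinned shares were 1.47% and 6.08%. In Heart1 a single cell held 8 of the 20 UMIs.

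**Figure D2:**
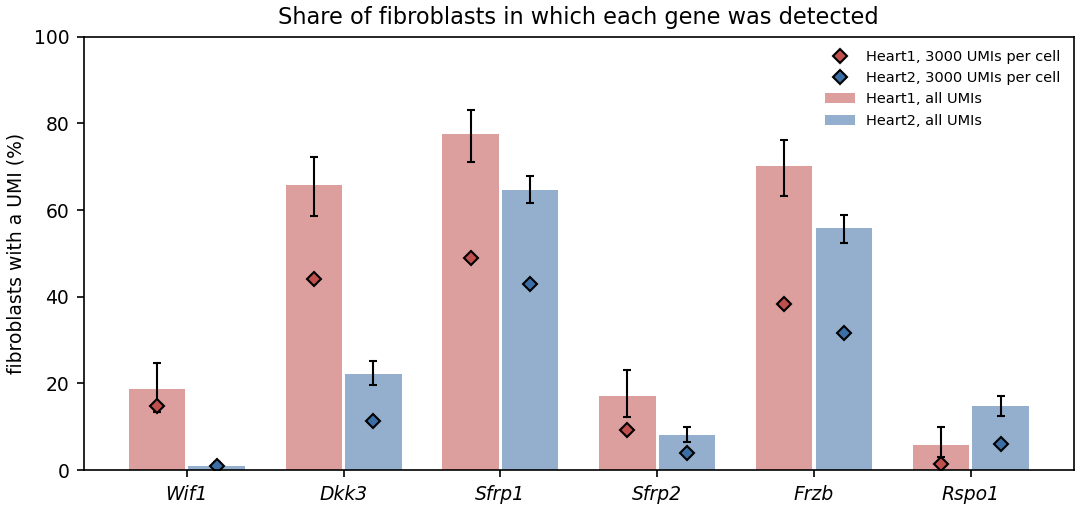
Share of fibroblasts with at least 1 UMI of each gene in each library (bars, with exact 95% binomial intervals) and the share after every cell was thinned to 3000 UMIs (diamonds). Wif1, Dkk3, Sfrp1, Sfrp2 and Frzb were found in a larger share of Heart1 fibroblasts, and Rspo1 in a larger share of Heart2 fibroblasts, with all UMIs and after thinning.

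Most fibroblasts expressed more than 1 of the 6 genes. At least 2 were detected in 178 of 204 fibroblasts of Heart1 (87.3%) and 514 of 938 of Heart2 (54.8%), or 47.1% and 21.4% after thinning. In 2 and 87 cells no member of the set was detected, and 0 cells held all 6. The commonest combinations in Heart1 were Dkk3, Sfrp1 and Frzb, and Sfrp1 and Frzb alone, with 34 cells each. In Heart2 the commonest was Sfrp1 and Frzb, in 194 cells.

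Wif1 cells were a subset of Dkk3 cells in both libraries. All 38 Wif1-positive fibroblasts of Heart1 and all 10 of Heart2 also held Dkk3, 48 of 48 cells, against 57.8% and 21.4% of Wif1-negative fibroblasts. The lowest Dkk3 count in a Wif1-positive cell was 4 UMIs in Heart1 and 3 in Heart2, and the medians were 18 and 10, against 1 and 0 in Wif1-negative cells. Dkk3 stood at 1594 and 1050 CPM in the Wif1-positive cells against 308.5 and 62.4 in the others. The Wif1-positive cells of Heart1 were 18.6% of its fibroblasts and held 53.5% of its Dkk3 UMIs. Across cells the correlation of the deposited values was 0.59 over 204 fibroblasts of Heart1 and 0.32 over 938 of Heart2, where cells of a library share its preparation. Rspo1 was seen in 0 of 38 and 1 of 10 Wif1-positive cells, against 7.23% and 14.8% of the others.

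**Figure D3:**
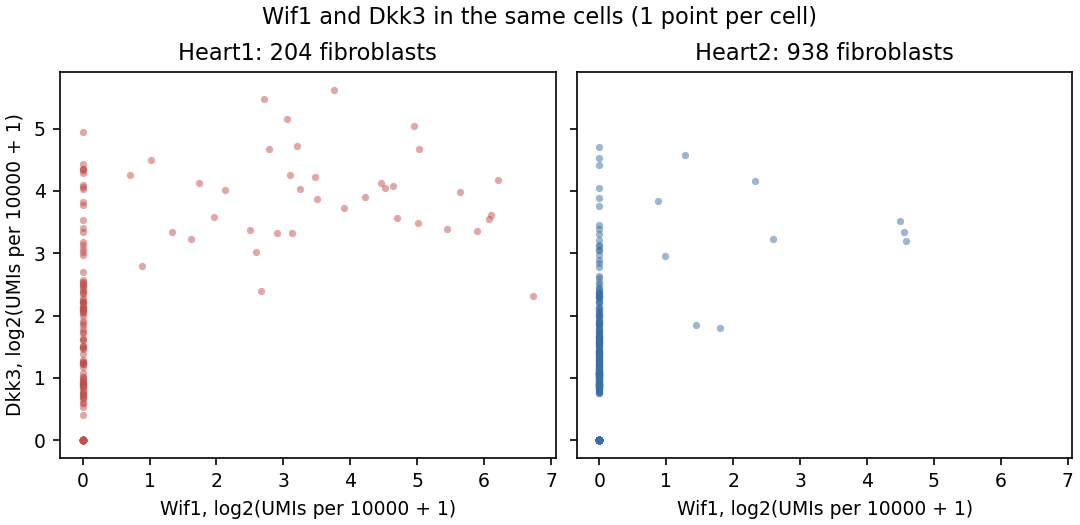
Wif1 and Dkk3 in the same cells, 1 point per fibroblast, as log2 of UMIs per 10000 plus 1, for Heart1 (left) and Heart2 (right). No cell with Wif1 lies at 0 for Dkk3, while many cells with Dkk3 lie at 0 for Wif1.

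Joint detection was described for the 15 pairs on thinned UMIs, with no test. Of these, 6 pairs were found together in more cells than the product of their shares gives in both libraries, and 5 in fewer in both. Several of these ratios lay near 1 or rested on few cells. For 1 pair, Wif1 with Dkk3, the exact intervals of the shares with and without the first gene lay apart in both libraries. They lay apart in the lower direction in both for 0 pairs. The intervals count cells of 1 library as independent, and joint detection helped to choose the genes, so a gap between them is only a description. For Wif1 with Dkk3 the observed number was 2.19 times that product in Heart1 and 7.74 times in Heart2. Dkk3 was seen in 29 of 30 Wif1-positive cells against 61 of 174 in Heart1 (96.7% and 35.1%), and in 7 of 8 against 99 of 930 in Heart2 (87.5% and 10.7%). In Heart2, Frzb was seen in 23.4% of Sfrp1-positive and 37.9% of Sfrp1-negative cells, and Rspo1 in 2.36% of Frzb-positive and 7.80% of Frzb-negative cells. Rspo1 was seen in 8.96% of Sfrp1-positive and 3.92% of Sfrp1-negative cells of Heart2. In Heart1 the exact intervals overlapped for each of these pairs. The shares there were 33.0% and 43.3% for Frzb by Sfrp1, 1.28% and 1.59% for Rspo1 by Frzb, and 3.0% and 0.0% for Rspo1 by Sfrp1. Frzb was seen in 6 of 8 Wif1-positive cells of Heart2 against 291 of 930, but in 6 of 30 against 72 of 174 of Heart1, so the libraries pointed in opposite directions after thinning. With all UMIs both pointed the same way, at 76.3% against 68.7% in Heart1 and 90% against 55.4% in Heart2. For Sfrp1 with Frzb in Heart2 the shares with all UMIs were 53.2% and 60.4%.

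**Figure D4:**
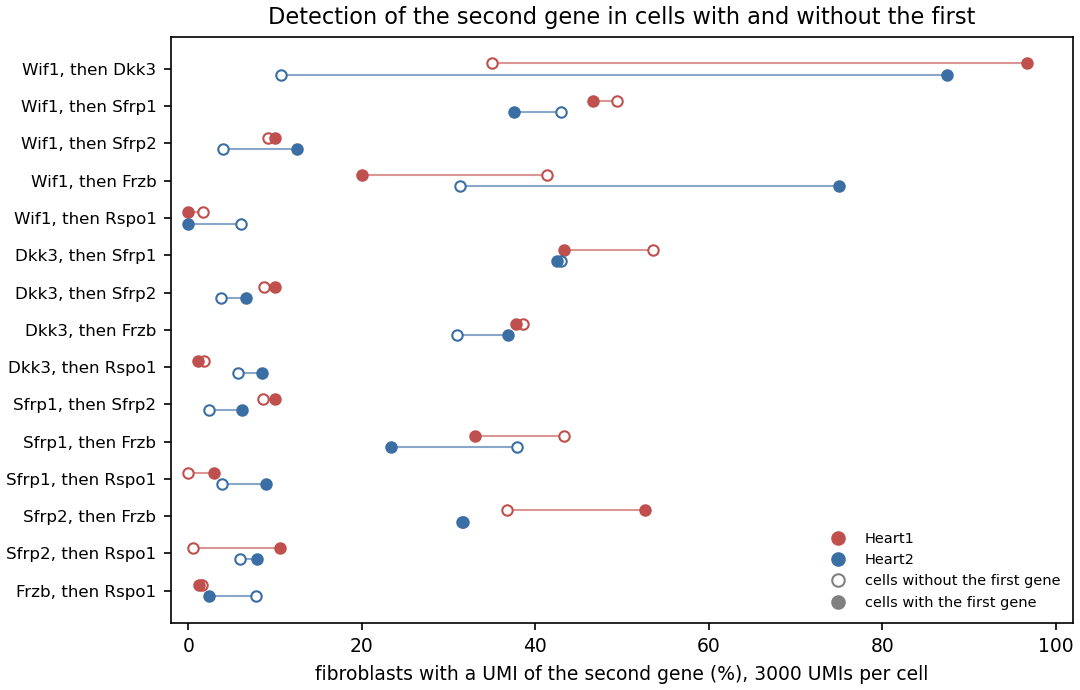
For each of 15 pairs and each library, the percent of fibroblasts with a UMI of the second gene among cells without (open) and with (filled) the first, after thinning to 3000 UMIs. For Wif1, then Dkk3, the shares are 96.7% with and 35.1% without in Heart1 and 87.5% and 10.7% in Heart2.

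The strain marks cells by p16, a product of Cdkn2a, which blocks cell division, and Wif1, Dkk3 and Sfrp1 were set beside the 3 cell-cycle inhibitor genes Cdkn2a, Cdkn2b and Cdkn1a. In Heart1, Cdkn2a was seen in 25 of 38 Wif1-positive fibroblasts (65.8%, 48.7 to 80.4%) and 45 of 166 others (27.1%, 20.5 to 34.5%). Thinned shares were 33.3% (17.3 to 52.8%) and 13.8% (9.04 to 19.8%). In Heart2, 2 of 10 and 5 of 928 cells held Cdkn2a. Cdkn2b, a neighbour of Cdkn2a with a like function, was seen in 26 of 38 against 37 of 166 cells in Heart1 and in 8 of 10 against 48 of 928 in Heart2. After thinning these were 36.7% against 6.90% and 50.0% against 2.37%. Cdkn1a, which encodes the inhibitor p21, stood closer, in 57.9% of Wif1-positive and 45.8% of other cells in Heart1 and 30.0% and 29.2% in Heart2 (40.0% and 25.3%, then 12.5% and 18.1%, after thinning). For Dkk3, Cdkn2a was seen in 42.5% of positive and 18.6% of negative cells in Heart1. After thinning these were 21.1% (13.2 to 31.0%) and 13.2% (7.56 to 20.8%), with overlapping intervals. In Heart2, 5 of 209 and 2 of 729 cells held Cdkn2a. By Dkk3, Cdkn2b was seen in 38.8% of positive and 15.7% of negative cells in Heart1 and in 13.4% and 3.84% in Heart2. After thinning these were 18.9% against 5.26% and 7.55% against 2.16%. Thinned Cdkn1a shares by Dkk3 were 31.1% and 24.6% in Heart1 and 30.2% and 16.5% in Heart2. For Sfrp1 the unthinned Cdkn2a shares in Heart1 were 28.5% in positive and 54.4% in negative cells, but 17.0% and 16.4% after thinning, so no difference is read from them. For Sfrp2, Frzb and Rspo1 the exact intervals of positive and negative cells overlapped for each inhibitor gene in each library, with all UMIs and after thinning.

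Genes that went with Dkk3, Sfrp1, Sfrp2 and Frzb were tested with limma on UMIs summed per library, over fibroblasts with and without a UMI of the gene, with library as a block. Wif1 and Rspo1 had under 20 positive cells in 1 library and were not fitted. Each fit rests on 4 sums and 1 residual degree of freedom, and its standard errors come mostly from the spread of other genes. Without the block, 0 genes passed in each of these 4 fits (488, 52, 162 and 52 genes at an unadjusted p under 0.05 for Dkk3, Sfrp1, Sfrp2 and Frzb). Positive cells were also deeper: a median of 12642 against 10619 UMIs for Dkk3 in Heart1 and 9811 against 8411 in Heart2, the same direction as for the other 3 genes. With every cell thinned to 3000 UMIs, 270 genes passed for Dkk3, 37 for Sfrp1 and 23 for Frzb.

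Dkk3-positive fibroblasts had more Postn, Ltbp2, Comp and Meox1 and less Ccl11 and Hsd11b1 than Dkk3-negative ones. Of 8580 genes, 112 (1.31%) rose and 47 (0.548%) fell at a limma adjusted p under 0.05. Of the 5 genes listed for activated fibroblasts, 4 rose and 0 fell. Postn, which encodes the matrix protein periostin, stood at 2610 CPM in Dkk3-positive and 339.9 in Dkk3-negative cells of Heart1, and at 768.4 and 81.1 in Heart2, a log2 difference of 3.04 ± 0.11 (SE, limma adjusted p = 0.000203). Ltbp2, a matrix protein that binds elastic fibres, rose by 2.79 ± 0.17, Acta2, smooth muscle actin, by 1.55 ± 0.26, and the transcription factor Meox1 by 1.25 ± 0.12. Comp, a cartilage matrix protein, rose by 4.31 ± 0.34 (limma adjusted p = 0.00476), from 94.4 to 1106 CPM in Heart1 and from 6.08 to 386.3 in Heart2. Id4 (4.19 ± 0.49), an inhibitor of transcription factors, and 1500015O10Rik (4.04 ± 0.41) also rose, as did Spp1 (3.41 ± 0.57), which encodes osteopontin and was seen in 16 and 6 positive cells against 1 and 0. The chemokine Ccl11 fell by 1.94 on the log2 scale (SE 0.17), Hsd11b1, which activates glucocorticoids, by 1.62, and the peptide hormone Adm by 1.89. Without Wif1-positive cells, an alternative chosen after seeing the data, 131 of the 159 genes passed again in the same direction, with Postn at 3.20 and Comp at 4.33, while Id4 did not pass (2.41, limma adjusted p = 0.0708). The calls for Id4, Spp1 and Acta2 ended under at least 1 alternative that kept the block (highest limma adjusted p 0.0787, 0.0692 and 0.0633). Endocardial markers summed to 797.5 CPM in Dkk3-positive and 174.5 in Dkk3-negative cells of Heart1 and to 204.5 and 53.6 in Heart2, with 0 of 4 at 0. In Heart1 fibroblasts this list was mostly 1 gene, Cytl1. It made 731.6 of 800.5 CPM in Frzb-positive and 90.7 of 136.8 in Frzb-negative cells there, and 56.4 of 106.6 and 29.1 of 71.6 in Heart2. Mural markers summed to 140.3 and 34.9 CPM in Heart1 and 61.7 and 57.6 in Heart2, with 0 of 5 at 0. Endothelial markers summed to 10.5 and 0.0 CPM in Heart1 and 8.95 and 4.96 in Heart2. The part of each list in these results was not tested.

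Sfrp1-positive fibroblasts had less Postn, Ltbp2 and Meox1 than Sfrp1-negative ones. Of 8633 genes, 11 (0.127%) rose and 21 (0.243%) fell. Of the activated list, 3 of 5 fell: Postn by 1.22, from 3823 to 1395 CPM in Heart1 and from 387.6 to 193.8 in Heart2, Ltbp2 by 1.68 and Meox1 by 0.84. Thbs4, a matrix glycoprotein, fell by 3.30 and Cilp, a cartilage matrix protein, by 0.84. Genes that rose were Hp (2.49 ± 0.25), which encodes haptoglobin, Cnmd (1.87 ± 0.28), Inmt (1.87 ± 0.29), a methyltransferase, and the complement gene C4b (1.79 ± 0.17). Spp1 (-4.44) and Tnmd (-4.03) fell on few cells, 10 and 5 negative against 7 and 1 positive for Spp1, and 4 and 2 against 1 and 1 for Tnmd. Without the 5% of cells with most UMIs, 0 genes passed the limma test for Sfrp1 (405 at an unadjusted p under 0.05), so each of these calls ended there.

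Frzb-positive fibroblasts had more Postn, Ltbp2 and Meox1 than Frzb-negative ones. Of 8588 genes, 24 (0.279%) rose and 19 (0.221%) fell. Of the activated list, 3 of 5 rose, Meox1 by 0.97, Ltbp2 by 0.88 and Postn by 0.78. Comp (0.74) and Cilp (0.82) rose, while Thbs4 fell by 0.60. The level of Thbs4 in Frzb-negative cells came from 3 and 4 cells with 535 and 458 UMIs, and it was seen in a larger share of Frzb-positive cells, 17.5% against 4.92% in Heart1 and 2.29% against 0.964% in Heart2. Of the adventitial list, Dpp4, a surface peptidase, fell by 1.44 and Ly6c1 by 0.83, and of the interstitial list Osr1, a transcription factor, fell by 1.0 and Inmt by 0.95. The largest rise with 1 sign in both libraries was that of Cytl1, a secreted protein, at 1.90 ± 0.29, from 90.7 to 731.6 CPM in Heart1 and from 29.1 to 56.4 in Heart2. Cytl1 is also 1 of 4 endocardial markers, whose summed level was 800.5 CPM in Frzb-positive and 136.8 in Frzb-negative cells of Heart1 and 106.6 and 71.6 in Heart2. None of the 4 was at 0. Endothelial markers summed to 6.17 CPM in Frzb-positive and 10.83 in Frzb-negative cells of Heart1 and to 3.72 and 9.055 in Heart2. The part of either list in this result was not tested. Hp fell by 1.65, and Tnmd (-2.86) fell on few cells, 3 and 1 positive against 2 and 2 negative. Cx3cr1 (1.65), Cd74 (1.37) and 1500015O10Rik (1.20) also rose. Cx3cr1 was seen in 4 and 14 Frzb-positive cells against 0 and 10, and Cd74 in 12 and 21 against 4 and 13. The calls for Comp and Cd74 held under every alternative with the block (highest limma adjusted p 0.0338 for each). Those for the other genes named here for Frzb did not.

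Sfrp2-positive fibroblasts were set apart chiefly by Wisp2, a matrix-associated CCN family protein and known Wnt-responsive gene, now named Ccn5. Of 8576 genes, 41 (0.478%) rose and 17 (0.198%) fell. Wisp2 rose by 2.56 ± 0.16 (limma adjusted p = 1.70e-06), from 166.7 to 778.5 CPM in Heart1 and from 62.6 to 509.3 in Heart2, and was seen in 25 of 35 and 41 of 76 positive cells against 44 of 169 and 109 of 862. It was also the gene most correlated with Sfrp2 across fibroblasts, with r = 0.37 in Heart1 and 0.44 in Heart2. 1500015O10Rik (1.78 ± 0.25), Inmt (1.69 ± 0.28) and the signalling inhibitor Smad6 (1.65 ± 0.25) rose, and Ccl11 fell by 1.60. Spp1 (-2.64) and Cd74 (-2.10), an MHC class II chaperone, also fell. The calls for Wisp2, Smad6 and Ccl11 held under every alternative with the block, and those for 1500015O10Rik, Inmt, Spp1 and Cd74 did not (highest limma adjusted p 0.0590, 0.0976, 0.239 and 0.144). Of the activated list, 0 of 5 genes passed.

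**Figure D5:**
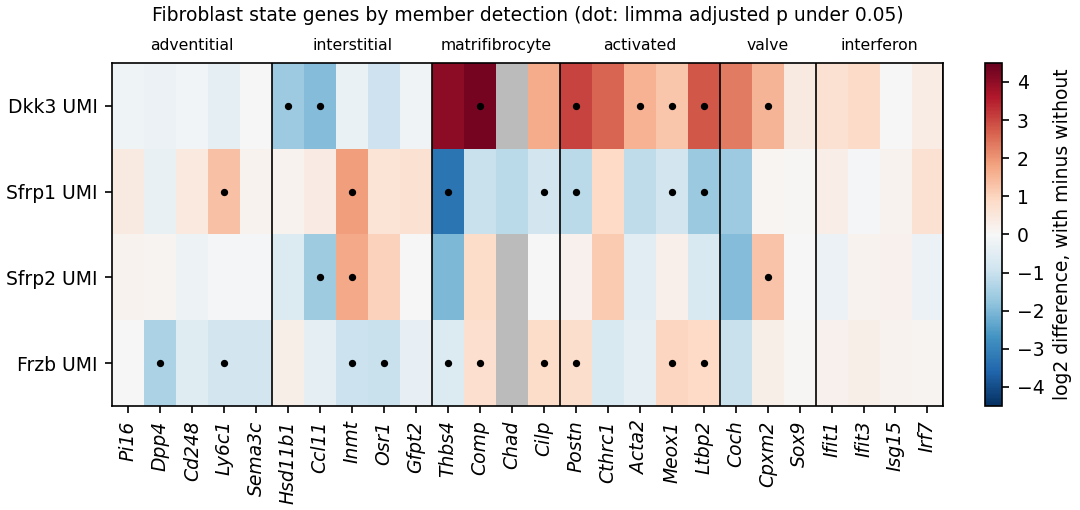
Log2 difference of fibroblast state genes between fibroblasts with and without a UMI of Dkk3, Sfrp1, Sfrp2 or Frzb, mean of 2 libraries. Dots mark genes at a limma adjusted p under 0.05, and grey cells were under the level filter. In the activated list, dots fall on 4 of 5 higher genes for Dkk3, 3 of 5 lower genes for Sfrp1 and 3 of 5 higher genes for Frzb.

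For Wif1, positive and negative fibroblasts of Heart1 were set side by side with no test, a description chosen after the counts were seen. Of 8402 genes, 12.0% were at least 2-fold apart. Pdzrn4, a PDZ-domain ubiquitin ligase, was at 188.1 against 0.912 CPM in Heart1 and at 168.0 against 0.242 in Heart2. Rspo3, an R-spondin, was at 222.8 against 5.92 and 109.2 against 4.85, and was seen in 24 of 38 and 4 of 10 Wif1-positive cells. Mal was at 108.3 against 0.456 and 134.4 against 0.848. Coch (423.1 against 3.19 in Heart1) did not recur, with 0.0 against 0.121 CPM in Heart2. Cd74 reached 278.0 CPM from 7 of 38 cells. The Wif1-positive cells held little Clec3b, a plasminogen-binding protein, with 0 against 662.2 CPM in Heart1 and 50.4 against 1209 in Heart2, and Lamb1, a laminin chain, with 0 against 216.5 and 0 against 584.5. Smoc2 was at 4.09 against 743.8 and 25.2 against 1643. Of the adventitial list 0 were 2-fold higher and 4 lower of 4 genes kept. Of the interstitial list 1 was 2-fold higher and 3 lower of 5 in Heart1, and of the matrifibrocyte list 0 and 3 of 4. The higher one, Inmt, was at 128.8 against 31.5 CPM there but 16.8 against 92.1 in Heart2. Hsd11b1, Ccl11 and Osr1 were lower in both. Comp was at 850.3 against 806.2 CPM, and at 689.0 against 94.0 in Heart2, seen in 6 of 10 positive cells. Cilp was at 81.8 against 1011, and at 512.5 against 140.9 in Heart2, there with 61 UMIs in 1 cell. Thbs4 was lower in both, and Chad was near 0 in Heart2 (0.0 against 0.242). Of the valve list, which holds Coch, 2 were 2-fold higher and 0 lower of 4. The other was Hapln1, at 38.8 against 2.28 CPM in Heart1 and 25.2 against 0.242 in Heart2, with 3 UMIs in 2 of 10 positive cells there. Of the activated list 0 were 2-fold higher and 3 lower of 5 genes in Heart1, and these 3 were higher in the Wif1-positive cells of Heart2. Postn was at 876.9 against 2196 CPM in Heart1 and 596.6 against 250.4 in Heart2, Ltbp2 at 30.7 against 391.0 and 75.6 against 31.6, and Cthrc1 at 20.4 against 112.1 and 8.4 against 4.0. The Heart2 levels in Wif1-positive cells rested on 71 UMIs in 7 of 10 cells for Postn and 9 in 2 for Ltbp2. For Cthrc1 it was 1 UMI in 1 cell, too few to read a direction. Meox1 and Acta2 were higher in both libraries, Meox1 at 760.4 against 468.5 and 453.7 against 189.1. Of 8 macrophage markers 5 were at 0 in Wif1-positive cells in Heart1 and 8 in Heart2, in 38 and 10 cells. Their sum was 10.2 against 10.0 CPM in Heart1, nearly level, and 0.0 against 19.1 in Heart2. Notch3 was the 1 mural marker of 5 measured that was at 0 in the Wif1-positive cells. The mural list summed to 353.6 against 55.6 CPM in Heart1 and 159.6 against 57.2 in Heart2. Endocardial markers summed to 1045 against 522.7 and 1151 against 76.6, with 0 of 4 and 1 of 4 (Npr3) at 0. As given for Dkk3, Cytl1 made most of this list in the fibroblasts of Heart1. Endothelial markers summed to 6.13 against 7.75 CPM in Heart1 and 33.6 against 5.57 in Heart2. Of these 5 markers, 4 (Cdh5, Cldn5, Kdr and Egfl7) were at 0 in the Wif1-positive cells of each library. The part of any of these cell types in these values was not tested.

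Rspo1 was described the same way in Heart2, 138 against 800 fibroblasts, where 1.37% of 8587 genes were at least 2-fold apart. Has1, a hyaluronan synthase, was at 59.2 against 2.71 CPM, from 5 of 138 and 13 of 800 cells (16.2 against 10.8 CPM in Heart1). Gadd45g, a stress-response gene, was at 121.4 against 18.2 CPM, the immediate early gene Fos at 427.9 against 92.1 and C4b at 394.6 against 84.7. Gadd45g (387.8 against 161.7 CPM) and C4b (425.6 against 250.6) were also higher in the 12 positive cells of Heart1. Of the interstitial list 2 of 5 genes were 2-fold higher in Heart2 and 0 lower. These were Inmt, at 234.7 against 63.35 CPM (80.8 against 46.84 in Heart1), and Osr1, at 126.6 against 39.72 (70.03 against 25.62). In Heart1, Fos stood at 457.9 against 911.2 CPM, the opposite direction. Thbs4 was at 0.740 against 132.0 CPM in Heart2, from 1 of 138 and 15 of 800 cells, and at 1842 against 397.1 in Heart1, from 2 of 12 and 26 of 192 cells, again the opposite direction. Of 5 mesothelial markers only Wt1 was measured. It was at 37.7 CPM in Rspo1-positive and 0.0 in Rspo1-negative cells of Heart1, and at 2.96 and 0.142 in Heart2. Endothelial markers summed to 16.2 and 6.81 CPM in Heart1 and to 8.14 and 5.55 in Heart2. Endocardial markers summed to 172.4 and 651.0, then 50.3 and 99.8, and mural ones to 102.3 and 110.5, then 32.6 and 63.6. The part of these cell types was not tested.

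The genes most correlated across fibroblasts with Dkk3, over 9558 genes, were Cpe, a peptide-processing enzyme (r = 0.64 in Heart1 and 0.43 in Heart2), 1500015O10Rik (0.65 and 0.33) and Pdlim3 (0.57 and 0.38). For Sfrp1 they were the complement gene C3 (0.48 and 0.36), Serping1, a complement inhibitor (0.45 and 0.26), and Igfbp4 (0.29 and 0.35). For Frzb they were Igfbp7, Prelp and Bgn at 0.20 to 0.32, too weak to read, and no gene reached 0.2 in both libraries for Rspo1. In Heart1 alone, Pdzrn4 was the gene most correlated with Wif1 (0.80, and 0.84 in Heart2).

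The other genes of the Wnt pathway were read from a list of 90 symbols, of which 69 were in the table and 35 passed the level filter. In fibroblasts against macrophages 17 rose, 3 fell and 15 did not pass, with a median log2 difference of 0.68 beside 0.16 over all 8786 genes, of which 26.7% rose and 17.7% fell. The filter averaged both classes, so a gene absent from macrophages was tested only where fibroblasts held it. Wnt5a, Rspo3 and Nkd2 had 0 macrophage UMIs, and Wnt11, Fzd1, Fzd2, Fzd4, Tcf7l1 and Wisp2 had 0 in Heart1. For such genes the filter fixed the direction, so the counts and the median are not read as support. The same filter held for all 8786 genes. The ligand genes Wnt11 (3.0 ± 0.40) and Wnt5a (2.83 ± 0.43) rose. Wnt5a had 113 and 184 UMIs in fibroblasts and 0 in macrophages, at least 21.5-fold over 3 UMIs of all macrophages. Of the receptor genes tested, 5 of 7 rose, among them Fzd2 (3.80 ± 0.35), Fzd1 (3.78 ± 0.35) and Fzd4 (2.59 ± 0.39). The co-receptor gene Lrp6 fell by 0.63 (limma adjusted p = 0.0233), a call lost under other settings (highest limma adjusted p 0.0561 with the block, 0.129 without). Igfbp4, a growth factor binding protein that can also bind Wnt receptors (2.21 ± 0.17), Kremen1, a Dickkopf receptor (1.57 ± 0.36), and Rspo3 (2.26 ± 0.51) rose. Of 17 genes inside the cell, 4 rose, including Tcf7l1 (2.97 ± 0.41), Bcl9l (1.30 ± 0.31) and Csnk1a1 (0.83 ± 0.21), and 1 fell, the co-repressor Tle1 (-1.08 ± 0.29). Among target genes Wisp2 (5.07 ± 0.31), Nkd2, a Wnt feedback inhibitor (3.35 ± 0.40), and Bambi, a TGF-beta pseudoreceptor (2.44 ± 0.37), rose and Ccnd1, cyclin D1, fell by 1.41.

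Within fibroblasts the 4 regulators fitted were each set beside the pathway list. Bambi rose with Dkk3 (1.06 ± 0.17, 1 of 41 genes), Igfbp4 with Sfrp1 (0.62 ± 0.10, 1 of 43) and Wisp2 with Sfrp2 (1 of 41), and 0 of 39 passed the limma test for Frzb. Over all genes 1.31% rose for Dkk3, 0.127% for Sfrp1, 0.478% for Sfrp2 and 0.279% for Frzb, so a count of 1 is not read as particular to the list. The Bambi call ended without Wif1-positive cells (0.39, limma adjusted p = 0.471), and that for Igfbp4 under an alternative with the block (highest limma adjusted p 0.356). Between libraries 5 of the 41 pathway genes kept were 2-fold higher in Heart1, Wisp2, Rspo3, Nkd1, Nkd2 and Wisp1, and 0 in Heart2, beside 2.39% and 1.51% of all genes. Rspo3 stood at 45.5 and 6.33 CPM over all fibroblasts, the opposite direction to Rspo1. Of its 122 UMIs in Heart1, 109 lay in Wif1-positive cells. In Wif1-negative fibroblasts Rspo3 was nearly level, at 5.92 CPM in Heart1 and 4.85 in Heart2, while Rspo1 stood at 9.12 and 26.2.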

How the data were processed

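Cell Ranger 3.0.2 and the mm10 build are named in the submitters' processing notes, with the normalising tool and its filters not given in the sources used here. Values were deposited by the authors on a natural log scale, as ln(1 + UMIs in each 10000 of the cell). Exponentiated values summed to 10000 for each cell. The 4459440 nonzero entries each came out as a whole number of UMIs (tolerance 1e-05), which were used as counts, and 0 cell columns were unused.

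The 6 genes, the gene lists, markers and gates were chosen with earlier results of these data known. The named genes were, per fit, the 4 highest and 2 lowest genes past the threshold with 1 sign in both libraries, for the class fit up to 3 Wnt genes per sub-list and direction, and the 3 genes most correlated with each of the 6; the genes described for Wif1 and Rspo1 alone were chosen after cell counts were seen. Gated UMIs were summed per library and group, and limma 3.58.1 (R 4.3.3) was fitted to log2(CPM + 5) with a mean-variance trend, library as a block and Benjamini-Hochberg adjustment, over genes averaging at least 10 CPM. No count model was run, a choice made because a log unit was expected, although whole UMIs were recovered from the values. On this scale fold changes of low genes are understated. The 2 groups of each fit come from the same library, which is what the block pairs. Correlations used the deposited log values. Thinning drew 3000 UMIs per cell (seed 1). Intervals are exact (Clopper-Pearson or Poisson, 95%) and cover counting error only. No doublet caller was run, and the 2 and 3 cells with both marker sets fell in neither class. The limma script was tested on simulated data. Whether counting used strand is unknown here, so reads of Sfrp2 and Rspo1 and their antisense genes could be mixed.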

Additional observations from a re-analysis of the deposited data

How the results depend on the processing

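For the 41 gene results named from the fits, 270 alternative values kept the block and had a test. Of these, 228 kept direction and side of the threshold, 42 kept direction but lost the call and 0 reversed. With either library left out, all 41 kept direction, with no threshold applied. The choice of genes with 1 sign in both libraries fixed that outcome. Without the replicate block, 26 of 41 lost the call, and the genes higher and lower fell to 0 in the fits for Dkk3, Sfrp1, Sfrp2 and Frzb. The Wnt pathway genes lower in fibroblasts than in macrophages were 1 without the block, and the higher ones 36 with no filter on low values. Depth limits Wif1 in Heart2 (10 cells) and Rspo1 in Heart1 (20 UMIs).

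The Heart1 over Heart2 level, without the 5% of cells with most UMIs and as a mean over cells, was 48.3 and 44.1 for Wif1, 3.12 and 2.96 for Sfrp2 and 1.36 and 1.33 for Frzb. For Sfrp1 it turned to 1.04 and 1.11, on the other side of 1. The thinned ratio of Dkk3 shares was 3.90.

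For Dkk3, genes higher and lower were 348 and 193 with no filter. The lower genes were 73 with a pseudocount of 20 CPM, 24 with median ratio scaling, 124 after thinning and 79 without Wif1 cells. For Sfrp1 they were 4 and 6 with a pseudocount of 20 CPM, 33 and 38 with no filter, 7 and 10 with median ratio scaling, 3 and 6 with the stricter gate and 0 and 0 without the 5% of cells with most UMIs. For Sfrp2 they were 64 and 42 with no filter and 18 and 6 with median ratio scaling, and the lower genes were 26 without the 5% of cells with most UMIs. For Frzb they were 4 and 5 with a pseudocount of 1 CPM, 11 and 9 with 20 CPM, 15 and 6 with the stricter gate, 61 and 52 without the 5% of cells with most UMIs and 15 and 8 after thinning. The thinned Sfrp2 fit was not run, with 19 positive cells in Heart1. The causes were not tested.

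With each library left out in turn, the genes 2-fold higher ranged for Dkk3 from 114 to 286, for Sfrp1 from 23 to 183, for Sfrp2 from 77 to 96 and for Frzb from 12 to 54. The genes 2-fold lower ranged for Dkk3 from 21 to 184, for Sfrp1 from 29 to 173, for Sfrp2 from 49 to 172 and for Frzb from 14 to 57. The Wnt genes 2-fold lower in fibroblasts were 2 in each library alone.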

Other observations

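Of the 39 cells in neither class, few held the 6 genes. In Heart1, 2 of 25 held 54 UMIs of Dkk3 (197.5 CPM, 148.3 to 257.6), 2 held 37 of Frzb, 3 held 17 of Sfrp1 and 1 held 2 of Wif1. In Heart2, 2 of 14 held 8 UMIs of Sfrp1, 2 held 2 of Dkk3, 3 held 4 of Frzb and 2 held 3 of Rspo1.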
